A study of Mus musculus with 34 samples.

Results

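Transcripts of the translation initiation and elongation factors were followed through 10 groups of mouse cells. The members were all genes whose only symbol in the array's annotation table begins with Eif or Eef. The Y-linked homologue of Eif2s3x was left out, because the groups differ in sex. This gave 48 genes of the 8252 measured, each represented by its brightest probe set. The rule used names and not signals. The 48 genes were covered by 65 probe sets, and 14 genes had more than 1.

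The cells fell into 6 pluripotent groups (18 arrays) and 4 somatic groups (14 arrays). Inner cell masses (ICM, 3 arrays) came from blastocysts of day E3.5 by immunosurgery, with sexes mixed. Replicate 1 of ICM came from a cross of C57Bl/6, C3H and CD1 mice and the other two from C57Bl/6 and C3H. All remaining groups were labelled C57Bl/6. Primordial germ cells were sorted for an Oct4/GFP reporter. Both sexes were pooled for the 4 arrays of stage E11.5 (PGC E11.5), and they were separated at E13.5 (PGC E13.5 female, 3 arrays, and PGC E13.5 male, 3 arrays). Embryonic stem cells (ESC, 2 arrays) were male lines at passages 9 to 14. Embryonic germ cells (EGC, 3 arrays), lines made from germ cells of E12.5, were male and at passage 19. Both kinds of line were grown with serum and LIF, a cytokine that keeps mouse stem cells undifferentiated. The somatic groups included SGM (4 arrays), the cells without reporter signal from gonads and mesonephroi of stage E11.5, and E13.5 embryonic fibroblasts at passage 2 (MEF, 6 arrays). Neural stem cells (NSC, 2 arrays) were passage 1 neurospheres from the sub-ventricular zone of 8-week-old mice, grown with EGF. SGM, MEF and NSC were labelled as mixed in sex. Haematopoietic stem cells (HSC, 2 arrays) were side-population, Lin-, Sca-1+, c-Kit+, CD34- cells from bone marrow of 8-week-old males.

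Translation of most mRNAs begins when eIF2, loaded with GTP and the initiator tRNA, joins the small ribosomal subunit together with eIF1, eIF1A, eIF3 and eIF5. The eIF4 factors bind the mRNA cap, unwind the leader and recruit this complex, which scans to the start codon, where eIF5B joins the large subunit. eEF1A then delivers each aminoacyl-tRNA and eEF2 moves the ribosome along. Stress kinases slow initiation by phosphorylating eIF2 so that eIF2B cannot recharge it with GTP, and the 4E-BP proteins do so by holding the cap-binding factor eIF4E. Much of this control acts on the proteins, which arrays of RNA do not measure.

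The NSC and HSC arrays stood apart from the rest: the control probe set of Gapdh for the opposite strand read 13.31 to 13.53 on those 4 arrays and 7.19 to 9.15 on the other 28. Its usual partner read 8.30 to 8.89 against 12.17 to 13.95. The counts and the named genes of the comparison that averages over somatic groups are therefore also given without NSC and HSC, whose own difference cannot be told apart from whatever set these arrays apart. On the MEF arrays 13 probe sets exceeded 16 log2 units, the top of a 16-bit scanner, and none did elsewhere. The lowest array weights in limma were 0.332 for ICM replicate 3, 0.387 for ICM replicate 1 and 0.419 for PGC E11.5 replicate 4. The mean over 7 pluripotency genes lay between 10.10 and 11.27 in the pluripotent groups and between 5.97 and 7.24 in the somatic groups. The mean over 6 germ cell genes was highest in PGC E11.5 (9.01) but did not set the E13.5 germ cells apart. It was 8.33 and 7.85 in female and male PGC E13.5, 8.21 in ICM and 8.16 in ESC. The means of the fibroblast, neural and haematopoietic stem cell lists were highest in MEF, NSC and HSC. Not every listed gene followed, as Gfap averaged 7.04 in NSC and 7.14 in SGM. In bulk RNA, fewer cells of a type and less RNA per cell cannot be told apart.

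All values are log2 signals made by the authors with RMA (robust multi-array average), in which 1 unit is a 2-fold difference. They compare groups for the same probe set and not different genes with each other. Most translation factors gave strong signals. Averaged over the 32 arrays, 26 of 48 lay above 9.005, the upper quartile of all genes. Only 5 lay below the lower quartile of 6.506, namely Eef1g, Eif2ak2, Eif2ak3, Eif4e and Eif4enif1. The Eef1g probe set, at 2.63 to 3.87 on every array, read too low to say anything of that abundant factor.

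All 48 genes differed among the 10 groups in the moderated F test of limma (Benjamini-Hochberg adjusted p under 0.05 over all genes), as did 97.1% of all genes. The distance between the highest and the lowest group mean had a median of 1.74 for the translation factors, from 0.44 for Eif4enif1 to 3.96 for Eif1a. It reached 2-fold for 36 of 48, against a median of 1.30 and 60.7% of all genes. Over the 8 groups without NSC and HSC the median was 1.39 (33 of 48, 68.8%), against 0.96 and 48.3% of all genes. The order of genes changed there. Eif1ax had the widest range (3.3) and Eif2ak2 the narrowest (0.29), and Eif1a stood at 2.83. MEF held the lowest mean of 11 factors, PGC E13.5 male of 9 and NSC of 8, while EGC and NSC held the highest mean of 9 each. Among all genes, the lowest mean lay in MEF for 19.8%, in PGC E13.5 male for 4.8% and in NSC for 17.9%, and the highest in EGC for 6.3% and in NSC for 12.9%.

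**Figure D1:**
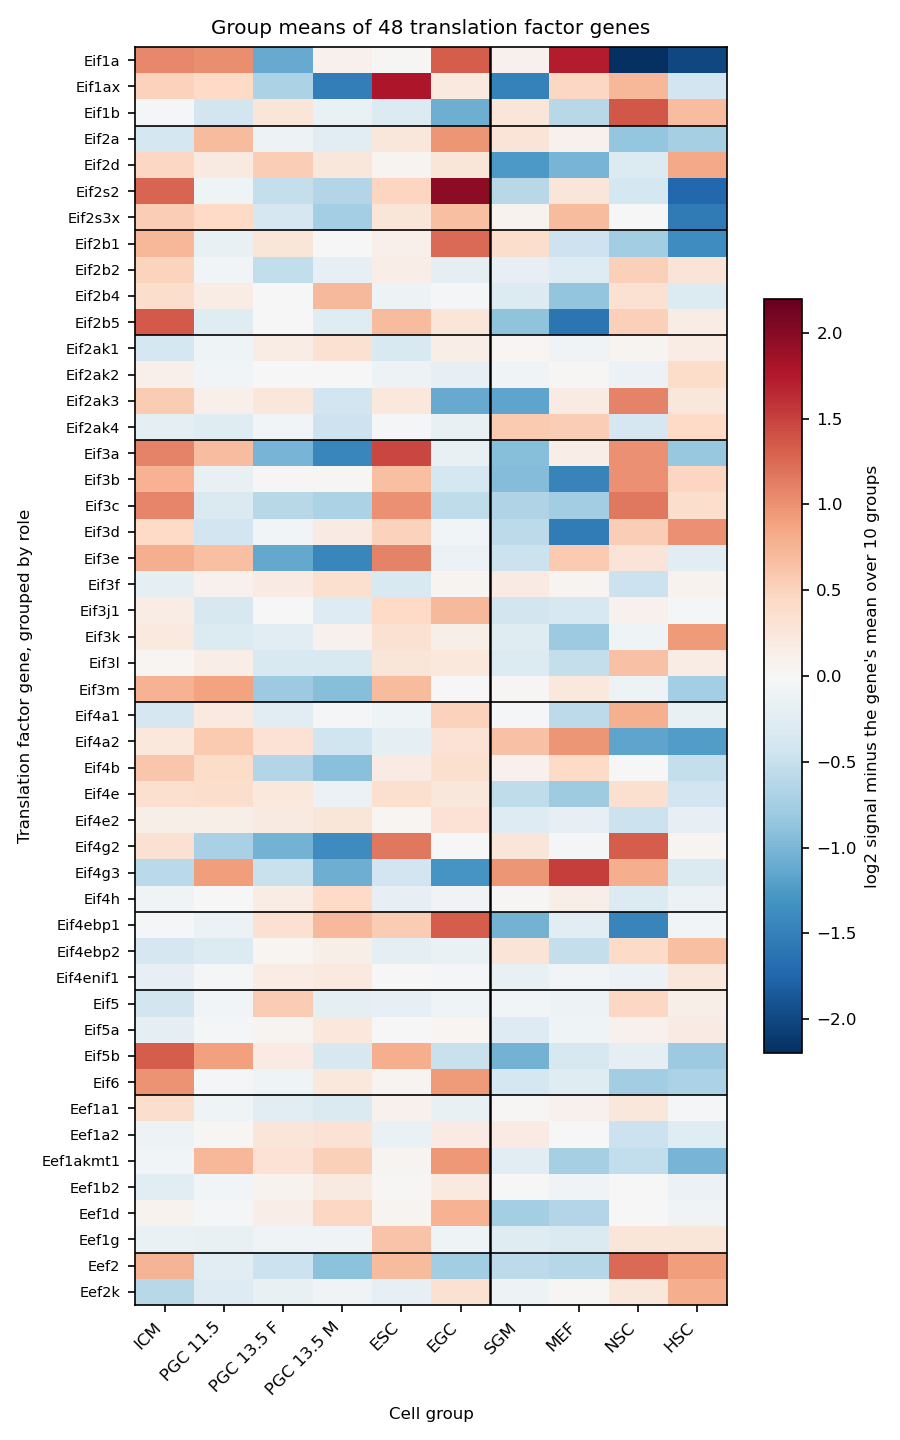
Group means of the 48 translation factor genes, each minus that gene's mean over the 10 groups (colour, log2 units), with genes in rows by role and groups in columns. The vertical line parts pluripotent (left) from somatic groups. Over the 10 groups Eif1a has the widest range (3.96), and Eif4enif1 the narrowest (0.44). Without NSC and HSC these are Eif1ax (3.3) and Eif2ak2 (0.29).

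Among the factors of start-codon scanning, Eif1a and Eif1ax varied most. Both encode eIF1A, which opens the small subunit for scanning; Eif1a lies on an autosome and Eif1ax on the X chromosome, and how well their probe sets tell the near-identical transcripts apart was not tested. For Eif1a the arrays read 11.54, 12.06 and 11.87 in ICM, 11.73, 12.21, 11.77 and 11.45 in PGC E11.5, 9.48, 9.59 and 9.87 in PGC E13.5 female and 10.98, 10.96 and 10.65 in PGC E13.5 male. They read 10.71 and 10.85 in ESC, 12.10 ± 0.13 (SD, n = 3) in EGC, 10.44, 11.44, 10.87 and 10.66 in SGM and 12.01 to 12.80 with a median of 12.44 in MEF. The NSC values were 8.40 and 8.63 and the HSC values 9.21 and 8.31. On average MEF stood at the top, overlapping EGC, and the adult stem cells at the bottom, with female E13.5 germ cells the lowest of the remaining groups. Eif1ax read 10.46, 10.78 and 11.09 in ICM, 11.02, 11.38, 11.01 and 9.38 in PGC E11.5, 9.39, 9.24 and 10.05 and 8.72, 9.03 and 8.44 in female and male PGC E13.5, 12.08 and 11.98 in ESC and 10.45, 10.33 and 10.64 in EGC. In the somatic groups it read 8.27, 9.72, 8.88 and 8.22 in SGM, 10.22 to 11.10 with a median of 10.70 in MEF, 11.04 and 10.94 in NSC and 9.72 and 9.96 in HSC. It was highest in ESC and lowest in male E13.5 germ cells and SGM. Eif1b, a second eIF1 gene that helps select the start codon, was highest in NSC (11.90 ± 0.15 SD, n = 2) and lowest in EGC (9.46 ± 0.19 SD, n = 3).

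The GTP-binding factor eIF2 was represented by Eif2s2 (its beta subunit) and Eif2s3x (its gamma subunit), and the alpha subunit gene Eif2s1 was not analysed here. Eif2s2 read 9.90, 9.76 and 9.72 in ICM, 8.44, 8.61, 8.37 and 8.25 in PGC E11.5, 7.78, 7.92 and 8.28 and 7.98, 7.94 and 7.66 in female and male PGC E13.5, 9.03 and 8.93 in ESC and 10.30, 10.10 and 11.01 in EGC. The somatic arrays read 7.90, 7.97, 7.99 and 7.72 in SGM, 8.55 to 8.98 with a median of 8.79 in MEF, 8.11 and 8.12 in NSC and 6.61 and 6.97 in HSC. EGC and ICM lay above every other array, and HSC below. Eif2s3x ran from 10.68 ± 0.37 (SD, n = 2) in HSC to 12.93 ± 0.17 (SD, n = 6) in MEF. Eif2a and Eif2d, which can bring tRNA to the ribosome without eIF2, ranged over 1.82 and 2.09 log2 units. Eif2a was highest in EGC and Eif2d in HSC.

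The eIF2B complex recharges eIF2 with GTP, and 4 of its 5 listed subunit genes were measured. Eif2b5, the catalytic epsilon subunit, read 9.77, 9.63 and 9.91 in ICM, 8.07, 8.12, 8.15 and 8.34 in PGC E11.5, 8.40, 8.59 and 8.26 and 8.37, 8.10 and 8.04 in female and male PGC E13.5, 9.34 and 8.92 in ESC and 8.59, 8.71 and 8.77 in EGC. It read 7.77, 7.49, 7.52 and 7.42 in SGM, 6.56 to 7.09 with a median of 6.84 in MEF, 9.05 and 8.88 in NSC and 8.70 and 8.50 in HSC. Every MEF and SGM array lay below every pluripotent array, while NSC and HSC lay among the latter. Eif2b1, the regulatory alpha subunit, read 11.52, 11.26 and 11.43 in ICM, 10.20, 10.57, 10.34 and 10.92 in PGC E11.5, 10.98, 11.07 and 10.76 and 11.05, 10.41 and 10.55 in female and male PGC E13.5, 10.84 and 10.75 in ESC and 11.82, 11.93 and 11.98 in EGC. It read 11.25, 11.00, 11.13 and 10.87 in SGM, 9.90 to 10.49 with a median of 10.22 in MEF, 10.03 and 9.79 in NSC and 9.25 and 9.37 in HSC. Here EGC and ICM were highest and HSC lowest. Among the kinases that inactivate eIF2, Eif2ak3 (PERK, which senses unfolded protein in the endoplasmic reticulum) ranged from 5.40 ± 0.34 (SD, n = 4) in SGM to 7.66 ± 0.05 (SD, n = 2) in NSC. Eif2ak4 (GCN2, which senses uncharged tRNA) ranged over 1.03 units, Eif2ak1 (the haem-regulated kinase) over 0.71 and Eif2ak2 (PKR, which senses double-stranded RNA) over 0.57.

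The scaffold eIF3, which holds the small subunit and the mRNA-binding factors together, had 10 of 14 listed subunits on the array. Its largest subunit gene, Eif3a, read 9.50, 10.19 and 9.49 in ICM, 9.32, 10.18, 9.14 and 8.60 in PGC E11.5, 7.48, 7.30 and 8.04 and 7.18, 7.46 and 6.96 in female and male PGC E13.5, 10.13 and 10.09 in ESC and 8.35, 8.35 and 8.70 in EGC. It read 7.21, 8.59, 7.59 and 7.41 in SGM, 8.48 to 9.04 with a median of 8.73 in MEF, 9.56 and 9.74 in NSC and 8.18 and 7.45 in HSC. Eif3a was high in ESC and ICM and low in both E13.5 germ cell groups, where all 6 arrays lay below every array of ICM, PGC E11.5, ESC and EGC. Eif3e read 9.20, 9.92 and 10.32 in ICM, 9.65, 10.25, 9.94 and 8.86 in PGC E11.5, 7.52, 7.77 and 8.39 and 7.69, 7.77 and 7.30 in female and male PGC E13.5, 10.10 and 10.11 in ESC and 8.78, 8.57 and 9.29 in EGC. It read 8.12, 9.15, 8.40 and 8.48 in SGM, 9.34 to 9.95 with a median of 9.59 in MEF, 9.29 and 9.31 in NSC and 9.33 and 8.24 in HSC. For this subunit too the E13.5 germ cells had the lowest means, although the lower HSC array and SGM replicate 1 fell within the female range.

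Eif3b and Eif3d, an RNA-binding core subunit and a cap-binding subunit, had another order of groups. Eif3b read 10.94, 10.72 and 10.93 in ICM, 9.88, 9.60, 9.85 and 10.39 in PGC E11.5, 10.31, 10.29 and 9.75 and 10.18, 9.98 and 10.16 in female and male PGC E13.5, 10.78 and 10.72 in ESC and 9.47, 9.92 and 9.74 in EGC. It read 9.37, 9.00, 9.20 and 9.00 in SGM, 8.31 to 8.82 with a median of 8.69 in MEF, 11.21 and 10.96 in NSC and 10.46 and 10.68 in HSC. MEF and SGM lay below all pluripotent arrays, and NSC overlapped none of the MEF or SGM arrays. Eif3d read 10.30, 10.03 and 10.53 in ICM, 9.37, 9.09, 9.37 and 9.89 in PGC E11.5, 9.91, 9.81 and 9.66 and 10.31, 9.87 and 9.93 in female and male PGC E13.5, 10.45 and 10.27 in ESC and 9.80, 9.68 and 9.88 in EGC. It read 9.64, 8.89, 9.22 and 9.38 in SGM, 8.04 to 8.47 with a median of 8.32 in MEF, 10.59 and 10.19 in NSC and 10.83 and 10.86 in HSC. Only MEF was clearly low. Eif3c, another core subunit, was highest in NSC (11.41 ± 0.05 SD, n = 2), ICM (11.31 ± 0.12 SD, n = 3) and ESC (11.25 ± 0.12 SD, n = 2), and lay between 9.48 and 10.63 in the other groups. The range of Eif3f was 0.84 units.

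In the cap-binding machinery, the scaffold-like genes Eif4g2 and Eif4g3 varied most. Eif4g2 encodes DAP5, an eIF4G relative that does not bind the cap-binding protein and supports other routes of initiation. It read 8.80, 9.28 and 8.91 in ICM, 8.05, 8.04, 8.04 and 7.69 in PGC E11.5, 7.47, 7.33 and 8.06 and 7.41, 7.54 and 6.91 in female and male PGC E13.5, 9.80 and 9.83 in ESC and 8.52, 8.60 and 8.90 in EGC. It read 8.73, 9.12, 8.98 and 8.93 in SGM, 8.35 to 8.88 with a median of 8.67 in MEF, 9.87 and 10.13 in NSC and 8.53 and 8.92 in HSC. All 10 germ cell arrays lay below all arrays of the other groups. Eif4g3, the second eIF4G scaffold, read 7.28, 7.49 and 7.46 in ICM, 9.15, 9.44, 8.98 and 8.16 in PGC E11.5, 7.78, 6.72 and 8.05 and 6.80, 7.14 and 6.85 in female and male PGC E13.5, 7.57 and 7.61 in ESC and 6.45, 6.84 and 6.80 in EGC. It read 8.94, 9.38, 8.85 and 8.71 in SGM, 9.10 to 9.82 with a median of 9.54 in MEF, 8.73 and 8.89 in NSC and 7.70 and 7.65 in HSC. MEF was highest and EGC lowest, and PGC E11.5 overlapped SGM, MEF and NSC.

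Eif4e, the cap-binding protein itself, gave a weak signal. It read 6.65, 6.87 and 6.59 in ICM, 6.80, 6.75, 6.85 and 6.59 in PGC E11.5, 6.41, 6.53 and 6.79 and 6.19, 6.34 and 6.12 in female and male PGC E13.5, 6.70 and 6.70 in ESC and 6.55, 6.69 and 6.59 in EGC. It read 5.81, 5.93, 5.77 and 5.67 in SGM, 5.33 to 5.81 with a median of 5.53 in MEF, 6.91 and 6.49 in NSC and 6.22 and 5.64 in HSC. All pluripotent arrays lay above all SGM and MEF arrays. Eif4ebp1, whose product 4E-BP1 holds eIF4E back until mTOR phosphorylates it, read 8.81, 8.17 and 8.53 in ICM, 8.23, 8.26, 8.11 and 9.03 in PGC E11.5, 9.04, 9.17 and 8.41 and 9.46, 9.03 and 9.25 in female and male PGC E13.5, 9.08 and 9.11 in ESC and 9.96, 9.55 and 10.06 in EGC. It read 7.92, 7.05, 7.47 and 7.57 in SGM, 7.94 to 8.70 with a median of 8.22 in MEF, 7.37 and 6.81 in NSC and 8.40 and 8.54 in HSC. EGC was highest, and SGM and NSC were lowest.

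Among the elongation factors the group means of Eef1b2, Eef1a1, Eef1a2 and Eef1g spanned less than 1 unit and those of Eef2k (1.40), Eef1d (1.52), Eef1akmt1 (1.99) and Eef2 (2.15) more. Eef1a1, the main tRNA-delivering factor, read 13.78, 14.50 and 14.64 in ICM, 13.82, 13.91, 13.91 and 13.68 in PGC E11.5, 13.64, 13.64 and 13.79 in female and 13.60 ± 0.09 (SD, n = 3) in male PGC E13.5, 14.02 and 14.00 in ESC and 13.76, 13.67 and 13.83 in EGC. It read 13.90, 13.92, 13.98 and 14.01 in SGM, 13.93 to 14.10 with a median of 14.03 in MEF, 14.29 and 14.05 in NSC and 13.74 and 14.05 in HSC. Its group means spanned 0.70 units, near the top of the scale, where probe sets can saturate. Eef2, the translocation factor, read 12.22, 12.18 and 12.35 in ICM, 11.45, 11.21, 11.34 and 11.05 in PGC E11.5, 11.16, 10.91 and 11.05 and 10.69, 10.59 and 10.51 in female and male PGC E13.5, 12.21 ± 0.29 (SD, n = 2) in ESC and 10.65, 10.76 and 10.84 in EGC. It read 11.02, 10.84, 10.94 and 10.91 in SGM, 10.52 to 11.16 with a median of 10.90 in MEF, 12.88 and 12.62 in NSC and 12.45 and 12.39 in HSC. ICM, ESC, NSC and HSC formed a high set that overlapped none of the arrays of the other 6 groups. The 18S rRNA control parted the same groups. It read at most 12.13 in ICM, ESC, NSC and HSC and at least 12.36 in the other 6 groups. Its part in this pattern was not tested. Eef2k, the kinase that inactivates eEF2, was lowest in ICM and highest in HSC. The narrowest ranges among all members over the 10 groups belonged to Eif4enif1 (0.44), Eef1b2 (0.46) and Eif5a (0.51). Eif4enif1 carries eIF4E into the nucleus, Eef1b2 recharges eEF1A and Eif5a helps stalled ribosomes move on.

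**Figure D2:**
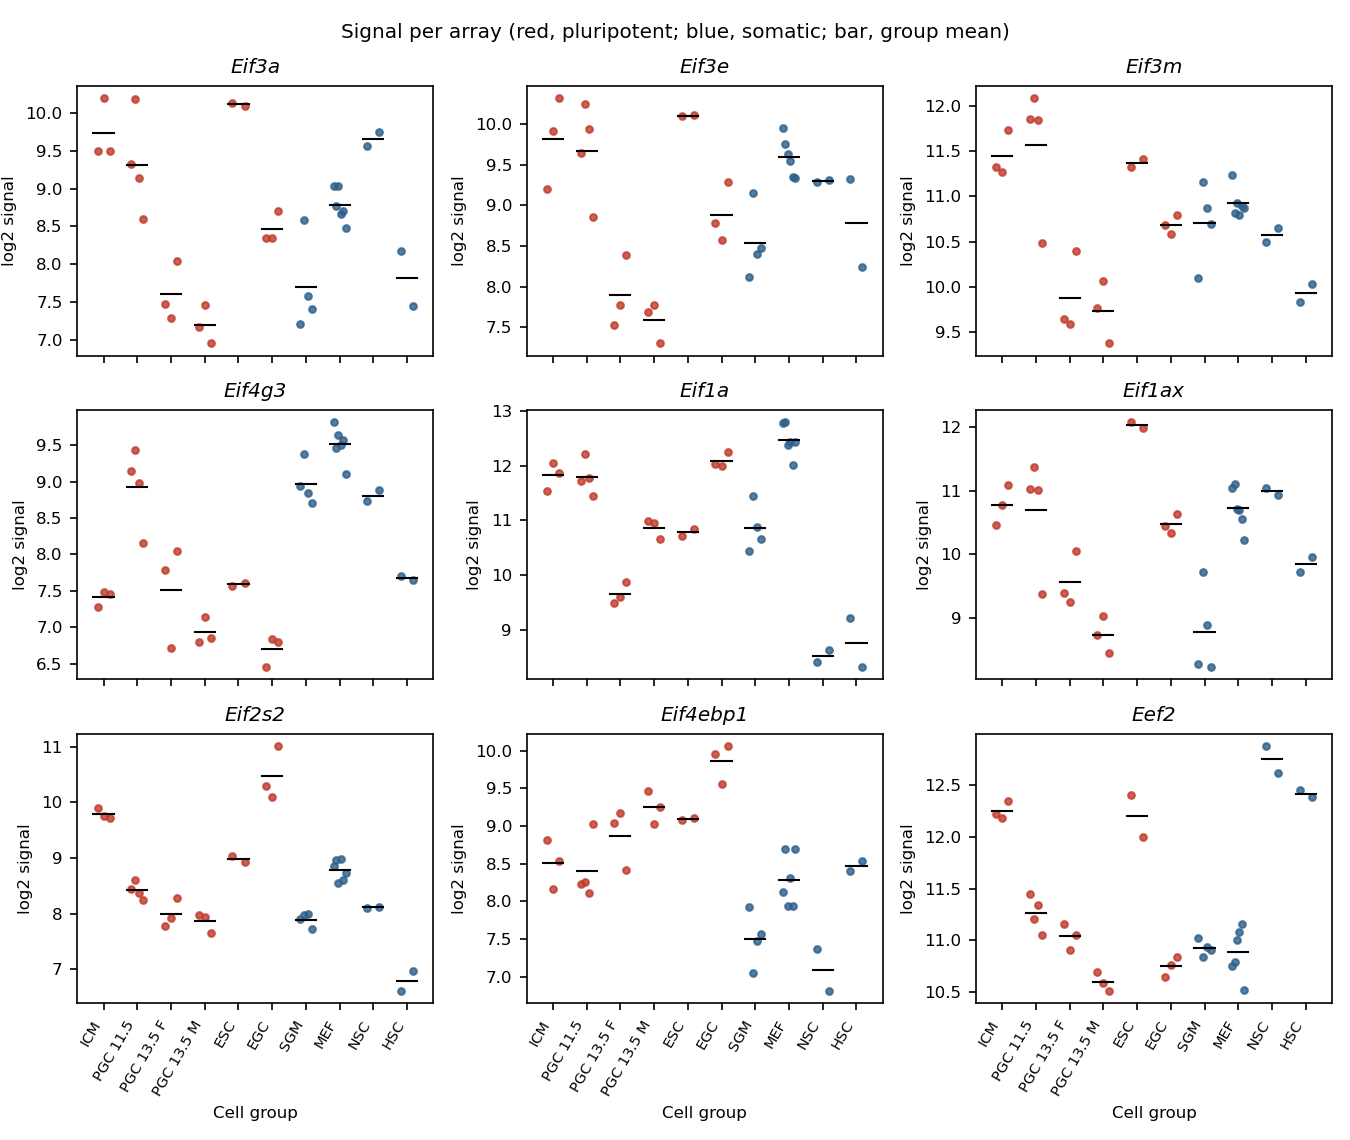
Log2 signal of 9 translation factor genes on every array, by cell group (red, pluripotent; blue, somatic; bar, group mean). Eif3a, Eif3e and Eif3m are low in both E13.5 germ cell groups, and Eef2 is high in ICM, ESC, NSC and HSC.

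The pluripotent groups were first set against the somatic groups, as the mean of 6 group means minus the mean of 4. Of the 48 factors, 31 passed the test (64.6%, against 63.9% of all genes). Of these 21 were higher in pluripotent cells (29.1% of all genes) and 10 lower (34.9% of all genes), and the median difference was 0.11 against -0.01 over all genes. All 4 eIF2 and tRNA-delivery genes and 3 of 4 eIF2B genes were higher, with median differences of 0.62 and 0.60. The other eIF2B gene, Eif2b2, was lower, but did not keep call and direction in 25 of 41 alternative settings. Of the eIF3 subunits 3 of 10 were higher and none lower. The cap-binding and helicase genes gave 4 higher and 2 lower of 8, the eIF5 and eIF6 genes 2 and 1 of 4, and the eEF1 genes 3 and 1 of 6. The lower eEF1 gene, Eef1a1, lost its call in 24 of 41 alternative settings. Both eEF2 and its kinase were lower, as was 1 of 4 eIF2 kinases. Eif4ebp1 (log2 difference 1.16 ± 0.12 SE, 2.23-fold, adjusted p = 1.47e-09), Eef1akmt1 (log2 difference 1.06 ± 0.10 SE, 2.08-fold, adjusted p = 4.45e-10), Eif1a (log2 difference 1.02 ± 0.11 SE, 2.02-fold, adjusted p = 3.55e-09) and Eif2s2 (log2 difference 1.02 ± 0.08 SE, 2.03-fold, adjusted p = 4.33e-12) were higher by at least 2-fold. Eif4g3 was lower by that much (log2 difference -1.23 ± 0.12 SE, 2.35-fold, adjusted p = 8.19e-10). These 5 compare with 8.91% of all genes past the same fold. Eef1akmt1 encodes a methyltransferase that modifies eEF1A. No member separated all 18 pluripotent from all 14 somatic arrays, whereas 1.73% of all genes did.

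Much of this comparison rested on the adult stem cell arrays. Without NSC and HSC 34 factors passed (68.7% of all genes), 27 higher (36.3%) and 7 lower (32.3%), yet only 18 of the 31 kept both call and direction. Another 5 passed in the opposite direction: Eif1a at -0.50, Eif2s3x at -0.26 and Eif4a2, an RNA helicase, at -0.68 became lower in pluripotent cells, and Eef2 at 0.45 and Eif2b2 at 0.17 became higher. The 15 higher factors that kept their call included Eif4ebp1 (1.10), Eef1akmt1 (0.91), Eif2s2 (0.58), Eif5b (1.08), Eif6 (0.68), Eif4e (0.91) and Eif2d (1.44). Eif5b encodes the GTPase of subunit joining, and Eif6 a factor that keeps the subunits apart. The 3 lower factors that did so were Eif4g3 (-1.73), Eif2ak4 (-0.75) and Eif4g2 (-0.40). All 4 eIF2B genes and 7 of 10 eIF3 subunits were higher than in SGM and MEF, led by Eif2b5 (1.53) and Eif3b (1.36). Of the eIF2 and tRNA-delivery genes 2 of 4 were then higher and 1 lower, with a median of 0.29, and Eif2a stood at 0.01. The cap-binding and helicase genes gave 3 higher and 4 lower of 8, the eIF5 and eIF6 genes 3 and none of 4, the eEF1 genes 3 and none of 6, and the eIF2 kinases 1 and 1 of 4. The eEF1 genes were not the same ones as before. Eef1a2 stood at 0 and no longer passed, and Eef1g (0.30), whose signal was weak throughout, did. Eef2k, at -0.12, did not pass (adjusted p = 0.055, limma). Without MEF 31 factors passed (62.5% of all genes), 20 higher (27.8%) and 11 lower (34.7%), and 28 of the original 31 kept call and direction while none of the 31 passed the other way. Eif3b (-0.02) and Eif3d (-0.22) then changed sign.

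**Figure D3:**
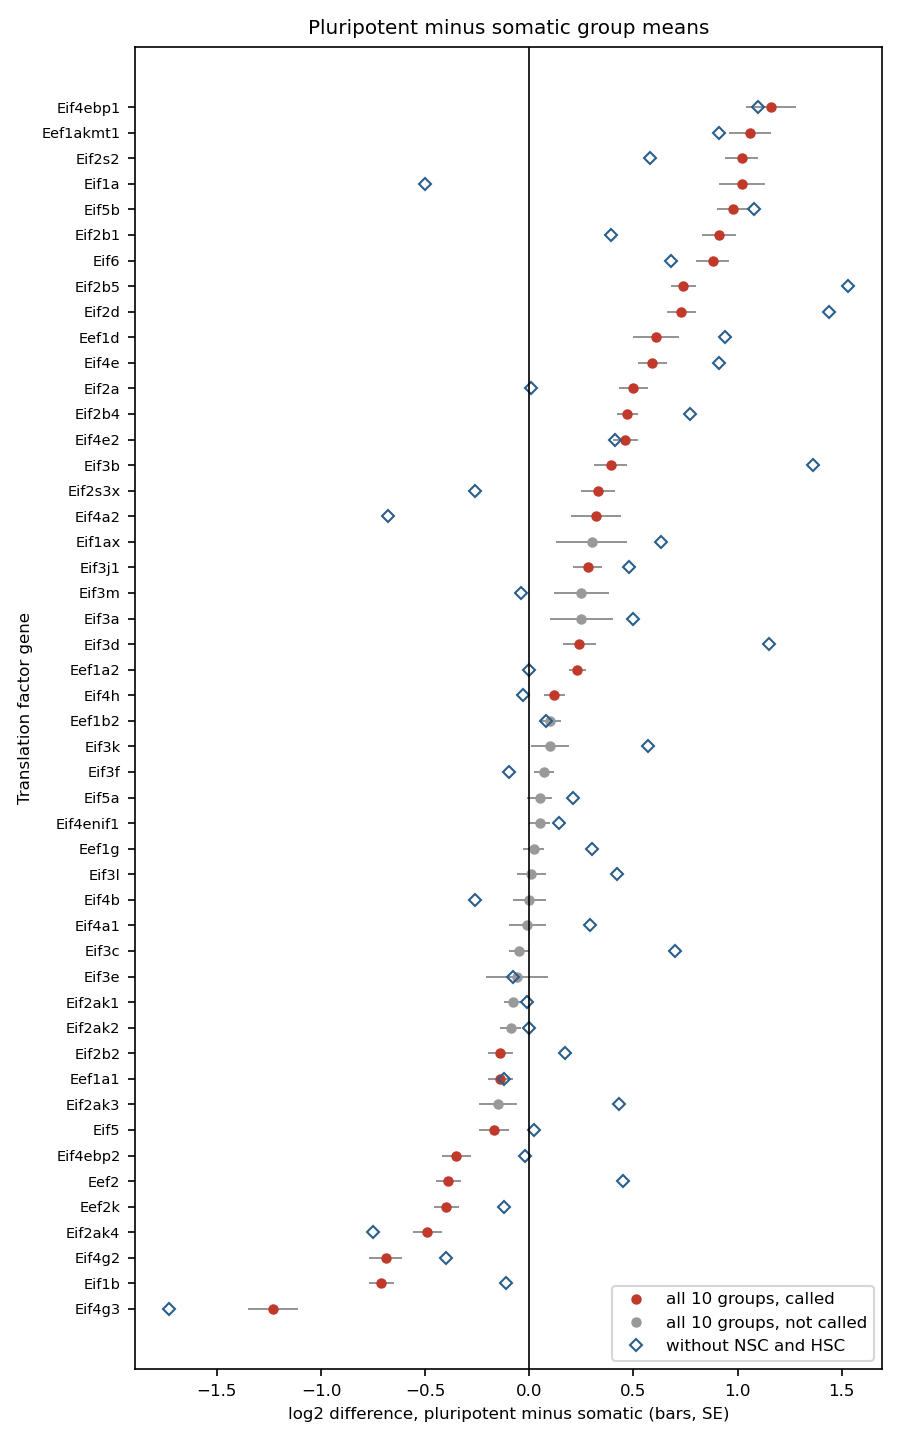
Difference between pluripotent and somatic group means (log2 units, bars SE) for each translation factor gene, with all 10 groups (filled; red where the adjusted p is under 0.05) and without NSC and HSC (open diamonds). Eif4ebp1 (1.16) and Eif4g3 (-1.23) lie at the ends, and Eif1a moves from 1.02 to -0.50.

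Germ cells of E11.5 were next compared with the reporter-negative cells of the same tissue. Of the 48 factors 26 passed (54.2%, against 50.2% of all genes). Here 21 were higher in germ cells (23.2% of all genes) and 5 lower (27% of all genes), with a median difference of 0.29 against -0.04. Higher were 6 of 10 eIF3 subunits, 3 of 4 eIF2 and tRNA-delivery genes and both eIF1A genes. The arrays of 22 factors did not overlap between the groups (47.9% of all genes), and 20 of these also passed the test. For Eif5b the germ cells read 9.39, 9.45, 9.70 and 9.04 and SGM read 7.38, 7.47, 7.61 and 7.42 (log2 difference 1.92 ± 0.15 SE, 3.8-fold, adjusted p = 1.73e-11). Eif3a, given above, was higher by 1.61 ± 0.27 (3.06-fold, adjusted p = 1.03e-05). For Eif2d the values were 8.32, 8.10, 8.20 and 8.52 against 6.90, 6.80, 6.80 and 6.78 (log2 difference 1.46 ± 0.13 SE, 2.76-fold, adjusted p = 9.68e-11). In all 3 genes every germ cell array lay above every SGM array.

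Of the 5 lower factors, Eif4g2 showed the largest difference (log2 difference -0.98 ± 0.15 SE, 1.98-fold, adjusted p = 4.37e-06). Eif2ak4 read 6.44, 6.39, 6.11 and 6.44 in germ cells and 7.23, 7.17, 7.18 and 7.20 in SGM (log2 difference -0.85 ± 0.14 SE, 1.8-fold, adjusted p = 6.33e-06). Eif1b read 10.28, 10.28, 10.07 and 9.93 against 10.52, 11.07, 10.91 and 10.72 (log2 difference -0.67 ± 0.11 SE, 1.59-fold, adjusted p = 9e-06). None of these overlapped. The other two were Eif4ebp2 (-0.59 ± 0.12), a second 4E-BP gene, and Eif2b1 (-0.55 ± 0.14). At least 2-fold differences numbered 6, all higher in germ cells (16.6% of all genes in either direction). Other signals moved with this contrast. The mean of the 4 erythroid markers was 10.37 to 10.77 on SGM arrays and 6.92 to 8.24 on germ cell arrays, with 4 of 4 higher in SGM, and the 18S rRNA control averaged 14.68 against 12.86. Their part in the result was not tested.

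Between E11.5 and E13.5 a set of initiation factors fell in germ cells. Both sexes at E13.5 were averaged and set against PGC E11.5. PGC E11.5 also entered the comparison with SGM, so the values of these comparisons are not independent. Of the 48 factors 26 passed (50.8% of all genes), 18 lower at E13.5 (19.9% of all genes) and 8 higher (30.9% of all genes). The median over all genes was itself 0.12 higher at E13.5, and that of the factors 0.08. All 8 factors that differed by at least 2-fold were lower (6.41% of all genes passed that fold in either direction). They were 3 eIF3 subunits (Eif3e -1.94 ± 0.25, Eif3a -1.91 ± 0.25 and Eif3m -1.76 ± 0.23), Eif4g3 (-1.71 ± 0.21), both eIF1A genes (Eif1ax -1.55 ± 0.29 and Eif1a -1.53 ± 0.18), the helicase cofactor Eif4b (-1.19 ± 0.14) and Eif2s3x (-1.02 ± 0.14). The adjusted p-values of the first 3 were 9.85e-07, 8.49e-07 and 8.33e-07 (limma, Benjamini-Hochberg over all genes). These 8 genes also moved together between arrays of 1 group. Within PGC E11.5 each was highest on replicate 2 and lowest on replicate 4, and among female arrays each was highest on replicate 3. The 8 falls are therefore not independent results, and what these arrays had in common was not tested.

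For the eIF3 subunit gene Eif3m, PGC E11.5 read 11.85, 12.08, 11.84 and 10.48, and E13.5 read 9.65, 9.59 and 10.40 in females and 9.77, 10.07 and 9.38 in males. Replicate 4 of PGC E11.5 stood below the other 3 yet above all 6 later arrays. Without it 30 factors passed (share of all genes not given), and the difference in Eif3m was -2.12. Eif3a and Eif3e likewise separated all 4 earlier from all 6 later arrays, as their values above show. Of the 10 eIF3 subunits 5 fell, adding Eif3c (-0.33 ± 0.08) and Eif3l (-0.47 ± 0.12), while Eif3d rose (0.49 ± 0.14). The other 4 did not pass. Arrays of 14 factors did not overlap between the stages (27.5% of all genes), and all 14 passed. The 8 large falls passed in each sex alone: Eif3e fell by 1.78 in females and 2.09 in males, Eif3a by 1.70 and 2.11, and Eif4g3 by 1.42 and 2.00.

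Fewer factors rose. Eif1b read 10.28, 10.28, 10.07 and 9.93 at E11.5, then 10.84, 10.80 and 10.77 in females and 10.38, 10.43 and 10.38 in males (log2 difference 0.46 ± 0.10 SE, 1.38-fold, adjusted p = 0.000565). Males alone against E11.5 gave 0.26 with an adjusted p of 0.0716 in limma. Eif2ak1 read 8.20, 8.10, 8.34 and 8.38, then 8.57, 8.50 and 8.48 and 8.70, 8.64 and 8.70 (log2 difference 0.34 ± 0.07 SE, 1.27-fold, adjusted p = 0.000337). Eef1a2, the tissue-restricted eEF1A gene, read 7.25, 7.22, 7.29 and 7.33, then 7.56, 7.48 and 7.50 and 7.54, 7.50 and 7.62 (log2 difference 0.26 ± 0.07 SE, 1.2-fold, adjusted p = 0.00224). No array of these 3 overlapped between stages, and the shifts were small. All 3 genes of eIF4E inhibition and transport rose in the average of both sexes, Eif4ebp1 by 0.65 ± 0.20, Eif4ebp2 by 0.39 ± 0.11 and Eif4enif1 by 0.24 ± 0.09. In males alone all 3 passed in limma, at 0.84, 0.44 and 0.26. In females alone Eif4ebp1 (0.47, adjusted p = 0.136) and Eif4enif1 (0.21, adjusted p = 0.122) did not, and Eif4ebp2 (0.35) passed with an adjusted p that rounds to 0.05. Eif4enif1 also lost its call after median centring of the arrays (0.18) and without PGC E11.5 replicate 1 (0.22) or 2 (0.21), female replicate 1 (0.21) or male replicate 3 (0.17). Beside these changes the 18S control averaged 12.86 at E11.5 and 14.54 and 15.06 in females and males at E13.5. Of all genes 65.8% were higher at E13.5. The mean of the 4 erythroid markers was 7.52 at E11.5 and 8.04 and 8.35 at E13.5, and 5 and 6 of 6 gonad soma markers had higher means. So did 7 and 6 of 7 fibroblast and 4 and 5 of 5 trophectoderm markers in females and males. Only 0 and 1 of 7 pluripotency and 1 and 1 of 6 germ cell markers did. Their part in the result was not tested.

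**Figure D4:**
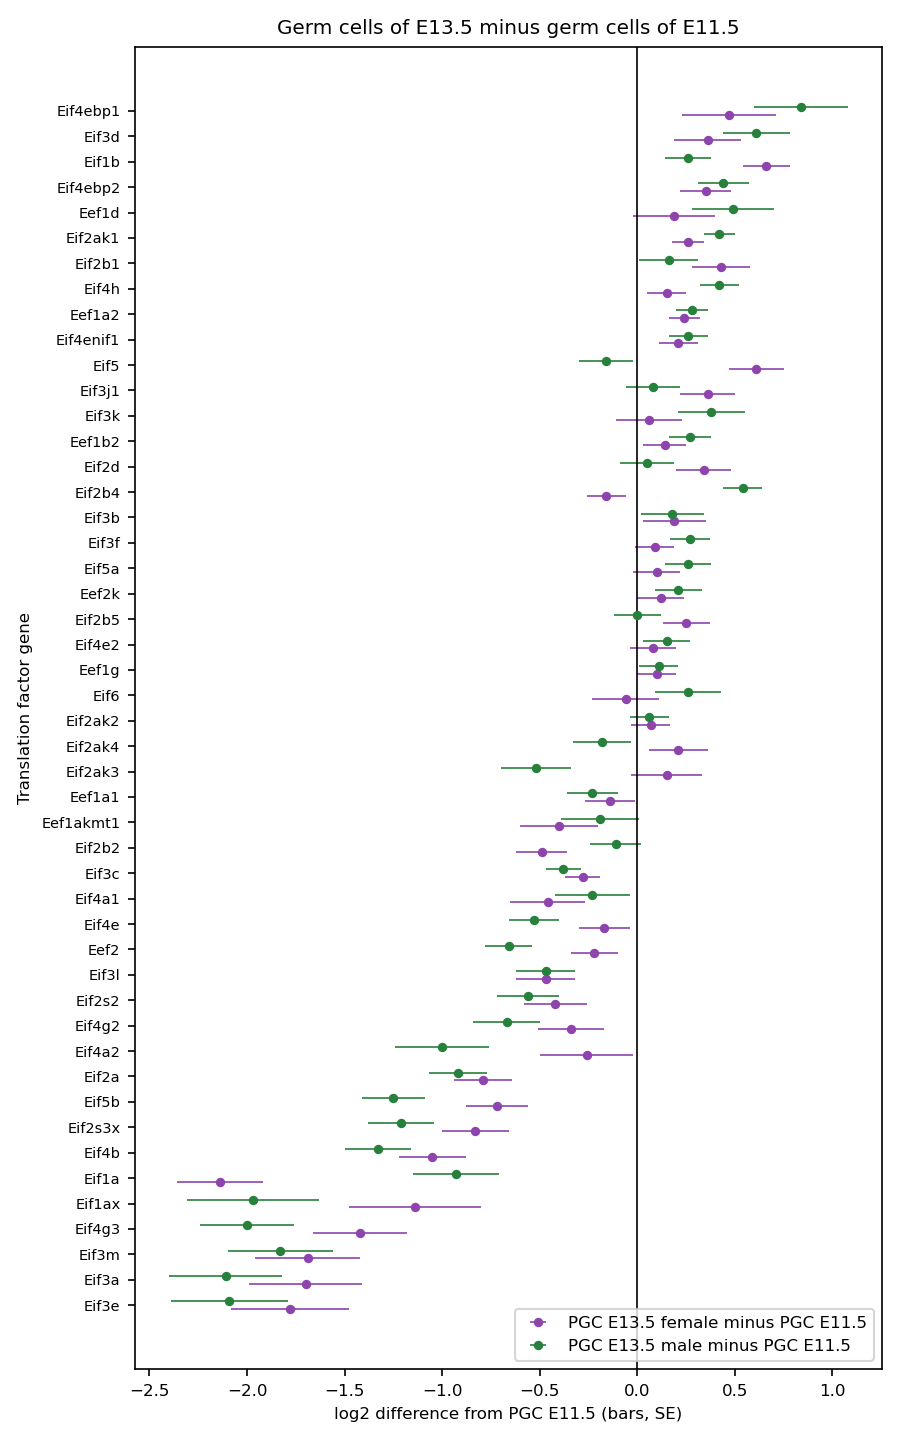
Difference of PGC E13.5 female (purple) and PGC E13.5 male (green) from PGC E11.5 for each translation factor gene (log2 units, bars SE). Eif3e, Eif3a, Eif3m and Eif4g3 lie at -1.42 or lower in both sexes, and no gene reaches 1.

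The start-site sequences of genes that moved most between these stages are shown, and these genes were chosen by their change. RefSeq windows (GRCm38.p6) were found for 40 of 48 members and for 6 of the 8 factors that fell at least 2-fold. Each line gives the 100 bases before the annotated start, 5′ to 3′ on the gene's strand; capitals mark GC boxes (GGGCGG or its other strand CCGCCC) and E-boxes (CACGTG, the same on both strands). Eif4g3 has 2 windows in the table, of which 1 is shown.
Eif3a (chr19:60790694-60790793, minus strand): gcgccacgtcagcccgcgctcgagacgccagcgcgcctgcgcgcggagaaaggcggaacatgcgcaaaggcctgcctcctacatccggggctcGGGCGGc
Eif3m (chr2:105017028-105017127, minus strand): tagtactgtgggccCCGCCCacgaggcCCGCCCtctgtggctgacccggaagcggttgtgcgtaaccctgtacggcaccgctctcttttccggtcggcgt
Eif4g3 (chr4:137993355-137993454, plus strand): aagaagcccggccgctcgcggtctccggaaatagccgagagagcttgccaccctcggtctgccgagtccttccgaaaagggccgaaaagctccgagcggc
Eif1ax (chrX:159372078-159372177, plus strand): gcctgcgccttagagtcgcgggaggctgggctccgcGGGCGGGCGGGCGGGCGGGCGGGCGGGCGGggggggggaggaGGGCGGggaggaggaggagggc
Eif4b (chr15:102073673-102073772, plus strand): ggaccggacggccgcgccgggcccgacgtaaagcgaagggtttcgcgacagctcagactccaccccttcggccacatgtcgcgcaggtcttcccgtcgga
Eif2s3x (chrX:94212652-94212751, minus strand): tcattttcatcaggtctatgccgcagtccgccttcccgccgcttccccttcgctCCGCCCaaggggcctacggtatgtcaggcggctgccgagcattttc
The 3 that rose without overlap were the following.
Eif1b (chr9:120492506-120492605, plus strand): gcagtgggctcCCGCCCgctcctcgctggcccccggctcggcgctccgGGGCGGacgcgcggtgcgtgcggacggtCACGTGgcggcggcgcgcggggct
Eif2ak1 (chr5:143817692-143817791, plus strand): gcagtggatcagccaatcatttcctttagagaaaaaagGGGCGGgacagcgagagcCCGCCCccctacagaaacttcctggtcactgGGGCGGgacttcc
Eef1a2 (chr2:181157016-181157115, minus strand): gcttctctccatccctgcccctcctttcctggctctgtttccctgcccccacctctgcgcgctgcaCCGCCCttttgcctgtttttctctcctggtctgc
Within these 100 bases GC boxes stood in 4 of the 6 genes that fell and in all 3 that rose, and Eif4g3 and Eif4b held neither motif. Over whole windows of 300 bases (250 before the start and 50 after), 37 of 55 member windows held a GC box (67.3%), against 57.0% of windows of measured genes and 35.7% of all windows in the table. E-boxes stood in 12 of 55 (21.8%, against 9.55% and 7.15%), which belonged to 10 genes, with 3 windows from Eif5a. The letters CCGGAAGT of an ETS site, either strand, stood in 10 (18.2%, against 6.68% and 3.89%), which belonged to 8 genes, with 3 windows from Eif4e2. Among the 6 genes that fell, only Eif3a held an E-box in its whole window and none held the ETS letters. The TATA letters TATAAA stood in 3 (5.45%, against 9.98% and 13.6%), and the cyclic AMP element TGACGTCA in 1 (1.82%, against 2.60% and 1.79%). A match describes the letters and shows no binding.

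At E13.5, female and male germ cells differed in 6 of 48 factors (8.62% of all genes), 4 higher in females (6.29% of all genes) and 2 lower (2.33%). Of these 1, Eif1a, differed by at least 2-fold (1.14% of all genes). The arrays of 19 factors did not overlap between the sexes (34.8% of all genes), of which 6 passed. Eif5, which makes eIF2 hydrolyse its GTP at the start codon, read 11.44, 11.18 and 11.76 in females and 10.71, 10.78 and 10.58 in males (log2 difference 0.77 ± 0.15 SE, 1.71-fold, adjusted p = 0.000861). Eif1a read 9.48, 9.59 and 9.87 against 10.98, 10.96 and 10.65 (log2 difference -1.21 ± 0.23 SE, 2.32-fold, adjusted p = 0.00092). Eif2b4, the delta subunit of eIF2B, read 9.45, 9.32 and 9.19 against 9.99, 10.13 and 9.93 (log2 difference -0.70 ± 0.11 SE, 1.62-fold, adjusted p = 7.67e-05). Eif5 was thus higher and the other two lower in females, with no overlap of arrays. Eif2ak3 read 6.82, 6.62 and 7.03 against 6.17, 6.25 and 6.04 (log2 difference 0.67 ± 0.19 SE, 1.59-fold, adjusted p = 0.0232), and Eef2 11.16, 10.91 and 11.05 against 10.69, 10.59 and 10.51 (log2 difference 0.44 ± 0.13 SE, 1.36-fold, adjusted p = 0.0329). Eif1b was the sixth (log2 difference 0.41 ± 0.13 SE, 1.33-fold, adjusted p = 0.0417). The last 3 depended on single arrays: only 3 factors passed without female replicate 1, female replicate 3 or male replicate 3. Shares of all genes are not given for these omissions. Without female replicate 3, Eif2ak3 stood at 0.57 (adjusted p = 0.142, limma) and Eef2 at 0.44 (adjusted p = 0.103). The X-linked Eif2s3x (log2 difference 0.38 ± 0.18 SE, 1.3-fold, adjusted p = 0.207) and Eif1ax (log2 difference 0.83 ± 0.37 SE, 1.77-fold, adjusted p = 0.171) did not pass in the same limma test.

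Embryonic stem cells, which derive from the inner cell mass, differed from ICM in 12 of 48 factors (25%, against 27.8% of all genes), 5 higher (15.3% of all genes) and 7 lower (12.6%). At least 2-fold differences numbered 2 (6.08% of all genes), and the arrays of 20 factors did not overlap (46.8% of all genes). Eif4g2 read 9.80 and 9.83 in ESC against 8.80, 9.28 and 8.91 in ICM (log2 difference 0.82 ± 0.20 SE, 1.77-fold, adjusted p = 0.0028), and Eif1ax was also higher (log2 difference 1.26 ± 0.41 SE, 2.39-fold, adjusted p = 0.0222). The latter did not pass without ESC replicate 1, where it was 1.21 with an adjusted p of 0.123 in limma, without ESC replicate 2 (1.31, 0.0887) or without ICM replicate 1 (1.10, 0.0686). Eef1g was higher by 0.77 ± 0.12, at readings of 3.87 and 3.52 against 3.08, 2.88 and 2.81, a range in which the Eef1g signal was weak throughout. Lower in ESC were Eif1a (log2 difference -1.05 ± 0.26 SE, 2.06-fold, adjusted p = 0.00338), Eif2s2 (log2 difference -0.81 ± 0.19 SE, 1.76-fold, adjusted p = 0.00175) and Eif6. The last read 10.58 and 10.35 against 11.46, 11.03 and 11.71 (log2 difference -0.93 ± 0.20 SE, 1.9-fold, adjusted p = 0.000827). Of the eIF2B genes 3 of 4 were lower, Eif2b5 by -0.64 ± 0.15, Eif2b1 by -0.61 ± 0.18 and Eif2b4 by -0.50 ± 0.12. No eIF3 subunit passed in limma at an adjusted p under 0.05. Only 7 factors passed when the spread was taken from these 2 groups alone (9.43% of all genes). Markers of the trophectoderm, the outer layer of the blastocyst, moved with this contrast. The mean of the 5 genes was 6.73 to 9.03 on ICM arrays and 6.14 to 6.51 on ESC arrays, and 5 of 5 had higher means in ICM. Eomes averaged 9.27 in ICM against 5.67 in ESC and Krt18 9.99 against 6.95, while Cdx2 gave 6.17 against 5.91. Their part in the result was not tested.

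The cultured lines, EGC and ESC, differed in 27 of 48 factors (56.2%, against 39.5% of all genes), 13 higher in EGC (20.9% of all genes) and 14 lower (18.6%). The arrays of 38 factors did not overlap (66.1% of all genes). At least 2-fold differences numbered 12 (8.43% of all genes), 3 higher and 9 lower. Of the eIF3 subunits 5 of 10 were lower and 1 higher. Eif3c read 9.60, 9.58 and 9.87 in EGC against 11.33 and 11.16 in ESC (log2 difference -1.56 ± 0.11 SE, 2.95-fold, adjusted p = 4.75e-11), and Eif3a was lower as well (log2 difference -1.64 ± 0.35 SE, 3.12-fold, adjusted p = 0.000481). Eif1ax was lower on its brightest probe set (log2 difference -1.56 ± 0.41 SE, 2.95-fold, adjusted p = 0.0035). Eef2 was lower by -1.46 ± 0.15, and Eif5b by -1.28 ± 0.20. The 3 largest rises were Eif2s2 (log2 difference 1.49 ± 0.19 SE, 2.81-fold, adjusted p = 6.48e-07), Eif1a (log2 difference 1.32 ± 0.26 SE, 2.49-fold, adjusted p = 0.000239) and Eif2b1 (log2 difference 1.12 ± 0.18 SE, 2.17-fold, adjusted p = 2.82e-05), whose EGC arrays all lay above the ESC arrays. ESC is shared with the comparison to ICM, so the opposite signs of Eif1a, Eif2s2 and Eif1ax in these comparisons are not independent. Leaving out any 1 array left fewer than 27 factors, at most 24 (without EGC replicate 2). Shares of all genes are not given for these omissions, so the counts are not set against them. The 18S control averaged 14.43 in EGC and 10.55 in ESC, and its part in the result was not tested.

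Among somatic cells, MEF and SGM differed in 22 of 48 factors (45.8%, against 49.8% of all genes), 11 higher in MEF (22.2% of all genes) and 11 lower (27.6%). The arrays of 17 factors did not overlap (41.5% of all genes), and all 17 passed. With each array centred on its median 25 passed (48.6% of all genes), 16 higher and 9 lower in MEF. At least 2-fold higher in MEF were 5 (14.8% of all genes passed that fold in either direction), and none was lower by that much: Eif1ax (log2 difference 1.95 ± 0.29 SE, 3.86-fold, adjusted p = 1.77e-06), Eif1a (log2 difference 1.62 ± 0.18 SE, 3.08-fold, adjusted p = 1.76e-08), Eif2ak3, Eif3a (1.08 ± 0.25) and Eif3e (1.06 ± 0.25). For Eif2ak3 the MEF arrays ran from 6.55 to 7.05 with a median of 6.73, and SGM read 5.07, 5.86, 5.23 and 5.42 (log2 difference 1.35 ± 0.15 SE, 2.55-fold, adjusted p = 1.01e-08), with no overlap. Lower in MEF were Eif3d (log2 difference -0.98 ± 0.14 SE, 1.97-fold, adjusted p = 1.03e-06), Eif1b (log2 difference -0.88 ± 0.10 SE, 1.83-fold, adjusted p = 2.17e-08) and Eif2b1 (log2 difference -0.84 ± 0.13 SE, 1.79-fold, adjusted p = 3.57e-06). For Eif1b the MEF arrays ran from 9.74 to 10.08 with a median of 9.97, below every SGM array. Of the eIF2B genes 3 of 4 were lower and none higher. Markers of other cells moved with this contrast. The mean of the 4 erythroid genes was 10.37 to 10.77 on SGM arrays and 6.55 to 6.76 on MEF arrays, and 4 of 4 were higher in SGM. The 6 gonad soma genes averaged 8.71 in SGM and 7.28 in MEF (6 of 6 higher in SGM) and the 5 endothelial genes 7.40 and 6.64 (4 of 5). Their part in the result was not tested. SGM is shared with the germ cell comparison, in which Eif1ax stood at 1.92, Eif1a at 0.94 and Eif2ak3 at 1.28, so the values of these comparisons are not independent.

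HSC and NSC differed in 25 of 48 factors (52.1%, against 53.7% of all genes), 8 higher in HSC (29.2% of all genes) and 17 lower (24.5%), with a median of -0.26 against 0.11 over all genes. Lower were 5 of 8 cap-binding and helicase genes and none higher. Eif4ebp1 was higher in HSC (log2 difference 1.38 ± 0.31 SE, 2.6-fold, adjusted p = 0.000497). Eif2d read 8.92 and 8.89 against 7.93 and 7.63 (log2 difference 1.13 ± 0.18 SE, 2.18-fold, adjusted p = 5.51e-06), and Eif3k, a peripheral eIF3 subunit, 10.01 and 10.88 against 9.56 and 9.28 (log2 difference 1.03 ± 0.23 SE, 2.04-fold, adjusted p = 0.000466). Lower were Eif3a (log2 difference -1.84 ± 0.38 SE, 3.57-fold, adjusted p = 0.000201), Eif2s2 (log2 difference -1.33 ± 0.20 SE, 2.51-fold, adjusted p = 4.04e-06) and Eif2s3x, which read 10.42 and 10.95 against 12.14 and 12.31 (log2 difference -1.55 ± 0.22 SE, 2.92-fold, adjusted p = 1.15e-06). Arrays of none of these 6 genes overlapped, nor did those of 39 factors in all (72.7% of all genes). Eif2s3x is X-linked, HSC were male and NSC were mixed in sex, and the part of sex was not tested. The differences of at least 2-fold numbered 9 (21.5% of all genes). With 2 arrays in each group, leaving out any 1 left fewer than 25 factors, and shares of all genes are not given for these omissions.

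Some of the genes named above had probe sets that did not move together. Eif1ax had 2: the brightest rose by 1.92 in germ cells over SGM and the dimmer fell by 0.96, and in EGC over ESC they gave -1.56 and 1.40, all 4 past the limma threshold. Between E11.5 and E13.5 both were lower, at -1.55 and -0.48, of which the second did not pass (adjusted p = 0.111, limma). The dimmer Eif3e probe set (mean 7.67 against 9.04) gave 0.18 at E13.5 over E11.5 (adjusted p = 0.0491, limma) where the brightest gave -1.94. Eif4b had 4, of which the 2 bright ones fell by 1.19 and 0.56. The 2 dim ones, with means of 6.17 and 5.35, gave 0.20 (adjusted p = 0.0333, limma) and 0.06 (adjusted p = 0.622). The dimmest Eif4b probe set also gave 0.39 in HSC over NSC (adjusted p = 0.0327, limma), where the brightest gave -0.53.

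In all, 9 of the 14 genes with several probe sets had one whose sign was opposite to a called difference of the brightest, and for 6 of them the opposite value passed in limma as well. Both Eif4e probe sets were weak (means 6.27 and 6.21), and the second gave -0.44 in germ cells over SGM (adjusted p = 0.0244) and -0.15 in pluripotent over somatic cells (adjusted p = 0.148), where the first gave 0.95 and 0.59. For Eif5b the second (mean 7.15 against 8.47) gave -0.23 in pluripotent over somatic cells (adjusted p = 0.0147) where the first gave 0.98. For Eif3l a weak second probe set (mean 3.96) gave 0.49 in HSC over NSC (adjusted p = 0.0182) against -0.48. The opposite values did not pass for Eif2d in germ cells over SGM (-0.18 against 1.46), for Eif2s2 in HSC over NSC (0.31 against -1.33) and for Eif3b in pluripotent over somatic cells (-0.02 against 0.39) and HSC over NSC (0.22 against -0.52). The second probe set of Eif1a moved with the first from E11.5 to E13.5 (-0.99 and -1.53). Statements on Eif1ax, Eif2d, Eif2s2, Eif3b, Eif3e, Eif3l, Eif4b, Eif4e and Eif5b in these comparisons therefore hold for their brightest probe set only.

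**Figure D5:**
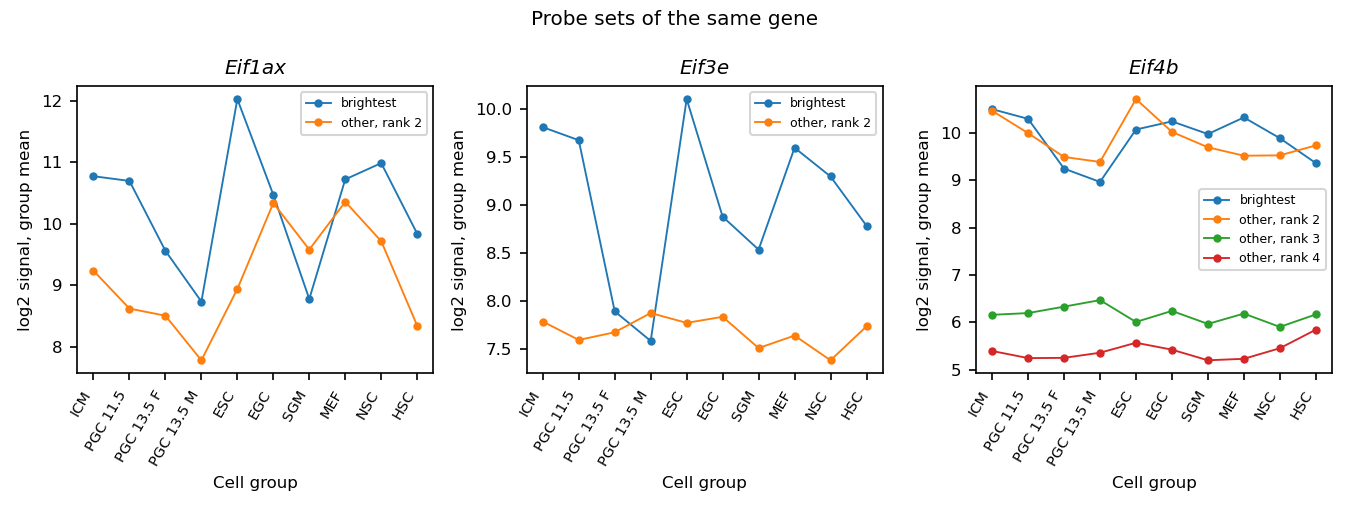
Group means of every probe set of Eif1ax, Eif3e and Eif4b (log2 signal, lines join the means of the 10 groups, ranked by mean signal). The brightest Eif3e probe set falls to its lowest means in the E13.5 germ cells, while the other stays near 7.67.

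Genes that work beside these factors were counted from lists of the pathway in the comparison of pluripotent with somatic groups. Of 21 measured cytosolic aminoacyl-tRNA synthetase genes, which charge tRNAs, 13 were higher and 1 lower, against 29.1% and 34.9% of all genes. With NSC and HSC left out 17 were higher and none lower (36.3% and 32.3% of all genes), and with MEF left out 11 were higher and 2 lower (27.8% and 34.7%). Farsb (1.70 ± 0.09 SE, adjusted p = 8.37e-16 in limma) and Lars (0.89 ± 0.06) showed the largest differences, which were 0.75 and 0.74 without NSC and HSC. The only lower gene, Aars (-0.23 ± 0.06), stood at 0 then. All 3 measured enzymes that modify eIF5A or eEF2 were higher, led by Dohh (0.66 ± 0.09), which completes hypusine on eIF5A, and Dph5 (0.31 ± 0.10), of the diphthamide pathway. Without NSC and HSC all 3 passed, with Dohh at 1.35 and Dph5 at 1.2. Without MEF only Dohh passed (0.45), with Dph5 at 0.08 and Dhps, which starts hypusine, at 0.11. Among termination and recycling genes Gspt1 (0.65 ± 0.07) and Etf1 (0.36 ± 0.12), both release factors, were higher, 2 of 4 measured. The count was 3 of 4 without NSC and HSC, with Gspt1 at 1.19 and Etf1 at 0.36.

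Signalling genes were mixed, and their counts read against 29.1% of all genes higher and 34.9% lower. Of 12 measured genes of mTOR and MNK signalling 2 were higher, Mtor (0.40 ± 0.06) and Mknk1 (0.09 ± 0.04), and 6 lower, led by Rragc (-0.71 ± 0.08) and Akt1s1 (-0.61 ± 0.08). Without NSC and HSC 3 were higher and 4 lower, with Mtor at 1.02 and Rragc at -1.41, while Mknk1 (0.05) and Akt1s1 (-0.07) did not pass. Without MEF 2 were higher and 5 lower, and Mtor (0.08), Mknk1 (0.08) and Rragc (-0.17) did not pass. Of 14 genes of the stress response downstream of eIF2 phosphorylation 3 were higher and 7 lower. The counts were 4 and 7 without NSC and HSC, and 4 and 5 without MEF. The transcription factor genes Ddit3 (-1.30 ± 0.09) and Atf5 (-1.05 ± 0.09) were lower, and remained so without NSC and HSC (-1.24 and -1.29) and without MEF (-1.15 and -0.50). Asns (0.87 ± 0.08), which makes asparagine, was higher, also without NSC and HSC (0.26). Gadd45a (0.80 ± 0.11) was higher too but turned to -0.97 without NSC and HSC. Of 8 mRNA-bound partners Pabpc4 (0.82 ± 0.10) and Larp1 (0.79 ± 0.06) were higher, and Dap (-0.78 ± 0.05) and Ybx1 (-0.16 ± 0.05) lower. Without NSC and HSC 3 of the 8 were higher and 2 lower, with Pabpc4 at 0.81, Larp1 at 0.96 and Dap at -2.22, and Ybx1 did not pass (-0.10). Dap stood at -0.01 without MEF. Of 6 mitochondrial translation factors only Gfm1 (0.32 ± 0.08) passed. The count was 3 without NSC and HSC, where Gfm1, at 0.18, did not pass.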

How the data were processed

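RNA from each group went through in vitro transcription 2 times and then onto Affymetrix mouse arrays, per the labels' protocols. The values are log2 signals that the authors deposited, made with RMA per the submitters' processing notes, whose version is not given in the sources used here. The deposited log2 table had no detection calls, so low values could not be told from absence. Of 34 columns, 2 equalled the mean of other columns of their group (within 1e-06) and were left out, which left 32 arrays.

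Of 12488 probe sets, 66 were controls, 10855 had 1 gene symbol, 396 several and 1171 none. The platform annotation gave the names, and 10839 symbols were checked by gene ID against RefSeq. Where a gene had several probe sets, the brightest over the 32 arrays stood for it. A linear model over all 10 groups was fitted with limma 3.58.1 in R 4.3.3 (22 residual degrees of freedom, median residual SD 0.161). Tests were two-sided, called at a Benjamini-Hochberg adjusted p under 0.05 over 8252 genes, and the fit was tested on simulated data. The labels call the replicates biological without saying from which animals or cultures, so p-values measure the spread between these samples, and the small number of arrays limits precision.

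Values on every array are given for the 12 members of widest range, for Eef1a1, Eef2, Eif4e and Eif4g2, and for up to 3 called members each way per comparison, those with the largest differences among genes whose arrays do not overlap. Other genes are named as up to 2 called genes each way per list. A few further members are given as differences to complete a role or a count and were chosen after their values were seen. The members and lists were chosen with earlier results of these data known. Alternatives changed the probe set, the columns, the low-signal filter, the centring, the array weights, the groups fitted and the replicate block, and left out each array in turn. Replicate numbers are shared between groups, but nothing in the labels ties same-numbered samples together. Correlations of their deviations ran from -0.566 to 0.521, so they were not treated as pairs. Between PGC E11.5 and SGM, which come from the same tissue, they ran from -0.353 to 0.521. Replicate 2 was the highest array of both groups for some members, such as Eif3a and Eif1ax, but not for all. Whether same-numbered arrays of these groups shared an origin was not tested.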

Additional observations from a re-analysis of the deposited data

Results flagged for a closer look

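Single arrays whose gap to the nearest other array was a large share of their group's range are given first. Where the group's range is narrow, such a gap can be small in log2 units. The 48 genes were checked in the 3 groups of 4 to 6 arrays, 144 checks in all. Of these 11 found such a value, on 6 different arrays, and chance alone gives about 1 in 20 checks. PGC E11.5 replicate 4 accounted for 6 of the 11, with Eif2b2 at 8.26, Eif3l at 10.52, Eif3m at 10.48, Eif4e2 at 10.53, Eif4ebp1 at 9.03 and Eif4g2 at 7.69. Eif2ak4 stood at 6.11 on PGC E11.5 replicate 3. Among SGM arrays Eef1g stood at 2.86 on replicate 4, where the others read 2.78. Eif3f stood at 7.68 on replicate 1, where the others read 7.79 to 7.81. Among MEF arrays Eif3m stood at 11.24 on replicate 1 and Eif4enif1 at 5.20 on replicate 3.

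The change from E11.5 to E13.5 differed between female and male germ cells for 6 factors, by a test that is identical to that of female against male at E13.5, since both share the E11.5 arrays. The female minus male difference of the change was 0.77 for Eif5, 0.67 for Eif2ak3, 0.44 for Eef2, 0.41 for Eif1b, -0.70 for Eif2b4 and -1.21 for Eif1a.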

How the results depend on the processing

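Most counts of translation factors that passed stayed within 1.5 times of the reported count under every alternative run. Beside some single-array omissions given next, there were these exceptions. Female over male E13.5 germ cells gave 12 in place of 6 with array weights (15.1% in place of 8.62% of all genes). ESC over ICM gave 7 in place of 12 with the compared groups alone (9.43% in place of 27.8% of all genes). Leaving out 1 array gave 3 to 8 for female over male, 7 to 13 for ESC over ICM, 27 to 32 for pluripotent over somatic, 25 to 28 for PGC E11.5 over SGM and 24 to 30 for E13.5 over E11.5. It gave 18 to 24 for EGC over ESC, 19 to 22 for MEF over SGM, 19 to 20 for HSC over NSC and 47 to 48 for any difference. Shares of all genes are not given for these omissions. Array weights gave 36 for E13.5 over E11.5, 17 higher and 19 lower (65.7% of all genes, against 50.8% without weights).

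Signs changed for single genes. Without NSC and HSC the pluripotent over somatic difference became 0.45 for Eef2, -0.50 for Eif1a, 0.17 for Eif2b2, -0.26 for Eif2s3x, -0.68 for Eif4a2, -0.03 for Eif4h and 0.02 for Eif5. Without MEF, an alternative chosen after seeing the data as were the single-sex values, it became -0.02 for Eif3b and -0.22 for Eif3d. With other probe sets, HSC over NSC became 0.01 for Eif3l (mean of probe sets) and 0.08 and 0.26 for Eif4b (mean, and plain probe sets only), and Eif4b at E13.5 over E11.5 became 0.20 (plain only). The cause was not tested. Over all results and settings 3353 values kept their call and direction, 222 lost the call and 6 gained it.

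With the replicate number as a block, counts were as follows, with the share of all genes in brackets. Pluripotent over somatic gave 29 (62.2%), PGC E11.5 over SGM 28 (49.7%), E13.5 over E11.5 26 (50.3%) and female over male 7 (8.66%). ESC over ICM gave 11 (27.2%), EGC over ESC 27 (38.6%) and MEF over SGM 22 (48.1%). HSC over NSC gave 27 (53.2%) and any difference 48 (95.9%). By their labels the samples share only a number, so the block is not read as pairing.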
